A study of Rattus norvegicus with 11 samples.

Results

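The genes described here encode collagens, laminins and other proteins of the extracellular matrix, the proteases that cut it, the inhibitors of those proteases, and 2 enzymes made by fibroblasts of the meninges, the membranes that wrap the brain. They were taken by symbol, but with earlier results of these data known, so the choice was not independent of measured values. The genes were read in hippocampus of rats on a control diet (6 samples) and rats on a ketogenic diet (5 samples). The ketogenic diet supplies much fat and little carbohydrate, and the labels say that it prevents epileptic seizures. The selection found 80 of the 10411 genes that the array names by a single symbol, through 112 of its 15866 probe sets. The labels give no strain, age, sex or time on the diet. They do not say whether each sample is a separate animal, and p-values here measure only how these samples spread, which may be technical.

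Fibrillar collagens form the cables of connective tissue and are made mainly by fibroblasts, which in brain sit in the meninges, in the choroid plexus stroma and around larger vessels. Basement membranes, thin sheets under endothelium and around vessels, hold type IV collagen, laminins and nidogens. The parenchyma of the brain, where neurons lie, has little fibrillar collagen, and its own matrix is rich in proteoglycans instead. In whole tissue, fewer cells of a type and less RNA per cell cannot be told apart.

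Signals were quantile normalized and expressed on the log2 scale, and a difference is the ketogenic minus the control mean on that scale. Probe sets whose mean over all 11 arrays was among the lowest 25%, below 5.17, were not tested. That left 75 of the 112, for 59 of the 80 genes. A probe set is described as called where limma's adjusted p, taken over all 11899 tested probe sets, was under 0.05. "Rose" and "fell" are used only of such probe sets.

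The arrays differed between diets as a whole. Deposited median signals were 89.2 to 94.4 on control and 79.9 to 87.9 on ketogenic arrays. For actin, the 3 prime over 5 prime signal, which rises as RNA breaks down, had a log2 value of 0.487 to 0.750 on control and 0.755 to 0.985 on ketogenic arrays. For Gapdh it was -0.068 to 0.148 and 0.127 to 0.344. The mean log2 level of all 45 bacterial spike-in probe sets was 5.13 to 5.24 on control and 5.08 to 5.25 on ketogenic arrays, and that of the 18 added at hybridisation 8.24 to 8.54 and 8.51 to 8.91. Ketogenic replicate 3, whose title alone ends in s2b rather than s2, lay at -2.82 on the first principal component, against 18.6 to 25.7 for the other ketogenic and -17.3 to -10.6 for the control arrays. Neuronal markers were well represented, with 9 of 10 fixed hippocampal neuron markers on the array and all 9 tested, among them Slc17a7 and Prox1.

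Among the 75 tested matrix probe sets 8 fell and 4 rose on the ketogenic diet. The called share, 16.0%, was close to the background of 16.5% over all tested probe sets. By direction it was 10.7% lower against a background of 7.87%, and 5.33% higher against 8.62%. The probe sets that fell were for the collagens Col1a1, Col2a1, Col4a2, Col15a1 and Col26a1, the elastic fibre genes Fbln2 and Ltbp2, and the protease inhibitor Timp2. Those that rose were for Col19a1, Fbn1, Sparc and Mmp17. Col19a1 was tested only through its ketogenic values and Ltbp2 only through its control values. The difference was negative in 50 of the 75, or 66.7%, against 50.8% over all tested probe sets, and the median difference was -0.12 against -0.0041. At an unadjusted p under 0.05 there were 23, or 30.7%, against 33.3% over all.

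The counts depended on scaling. On the values as deposited 21 fell, 28.0% against a background of 14.6%, and 4 rose, 5.33% against 9.04%. With arrays centred on the 75th percentile 18 fell, 24.0% against 11.6%, and 4 rose, 5.33% against 11.3%. The share of calls that were higher was 33.3% in the main setting, 16.0% as deposited and 18.2% after centring. When limma's fit held the 3 prime over 5 prime log2 ratios of actin and Gapdh as covariates, 0 of the 75 were called, 4 (5.33%, against 6.45% of all) had an unadjusted p under 0.05, and 6 of all 11899 were called, or 0.0504%. The median difference of the 75 was then -0.095. In that fit 11 of the 12 calls kept their sign, among them Col1a1 at -0.67 and Col2a1 at -0.57, and Ltbp2 did not. The SE of Col1a1 was 0.25 there and 0.13 in the main setting, and that of Col2a1 0.20 and 0.11. Since the actin ratios of the diets did not overlap, this fit could hardly tell diet and ratio apart. With the mean level of all 45 spike-in probe sets as covariate 7 fell, 9.33% against 6.8% of all tested probe sets, and 4 rose, 5.33% against 7.31%. With their mean on the deposited scale 3 fell, 4.0% against 3.66%, and 3 rose, 4.0% against 3.97%, so both shares lay near the background. With the 18 hybridisation controls alone 11 fell, 14.7% against 5.97%, and 3 rose, 4.0% against 5.46%. With no filter on dim probe sets 3 of 112 fell, 2.68% against 3.95%, so the share lower was then below the background.

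**Figure D1:**
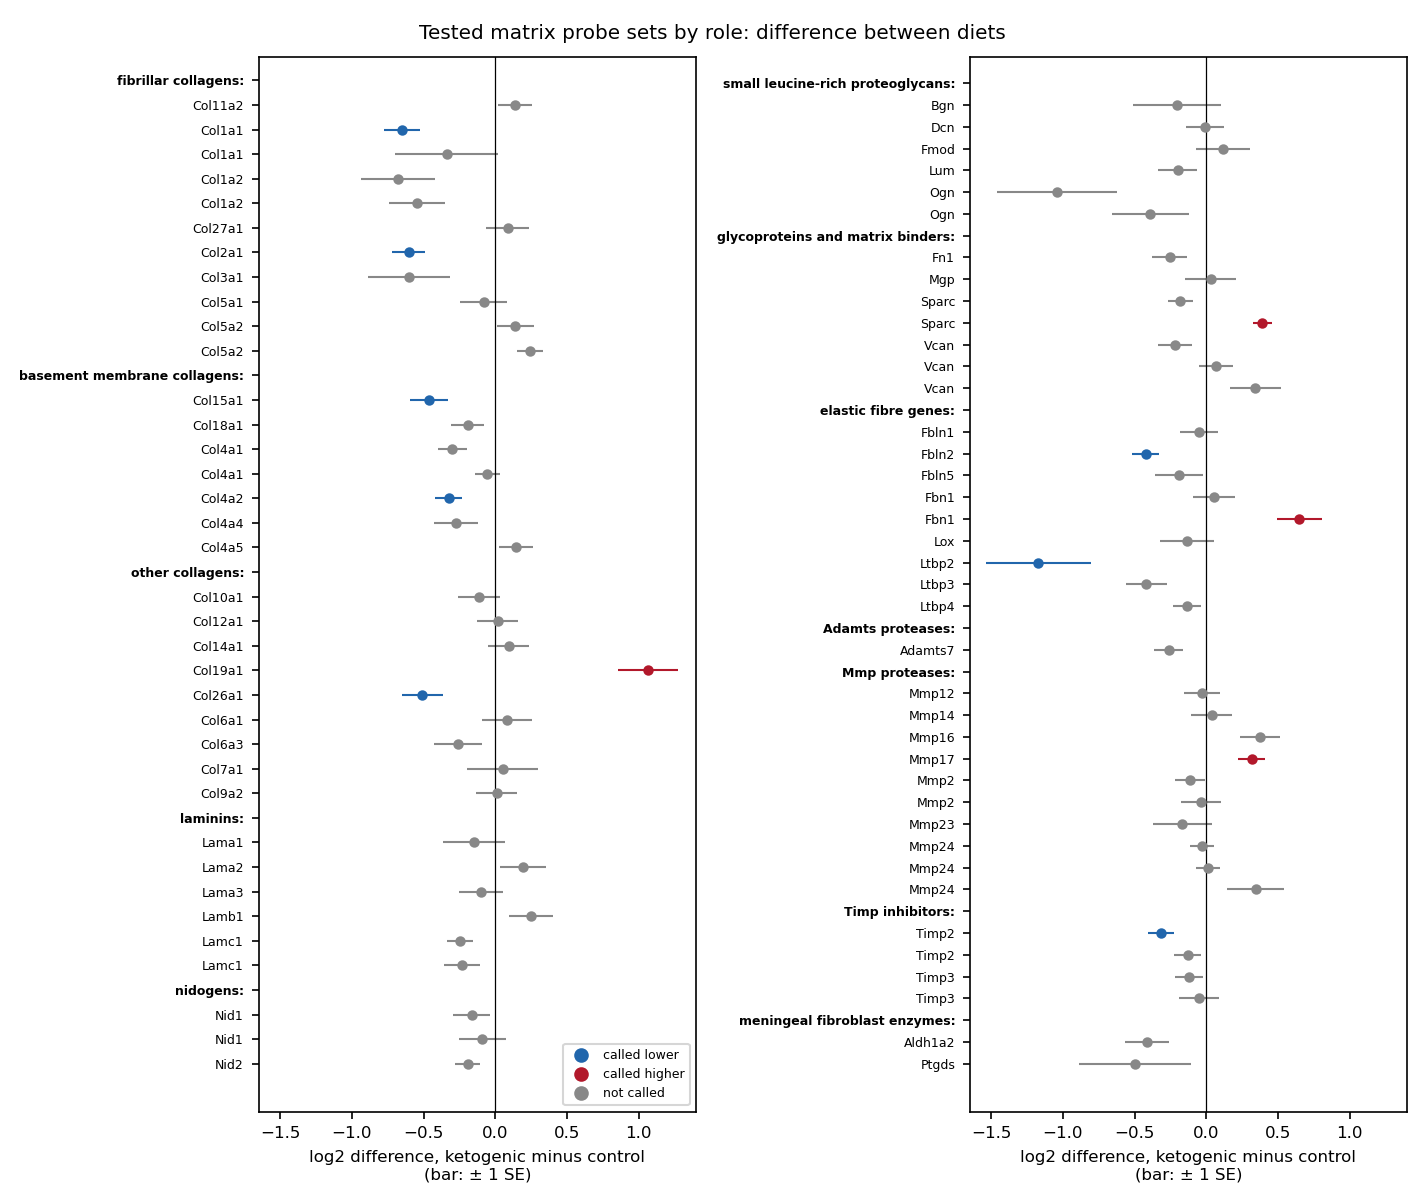
Log2 difference between diets (x axis, ketogenic minus control, bar ± 1 SE from limma) for each of the 75 tested probe sets, 1 line each, grouped by role. Blue marks the 8 that fell, red the 4 that rose and grey those not called; fibrillar and basement membrane collagens lie mostly left of 0, matrix metalloproteinases on both sides.

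Of the fibrillar collagens, 2 of 11 tested probe sets fell and 0 rose, with a median of -0.34 and 7 of 11 differences negative. Counts by role, here and below, stand beside a background of 7.87% lower and 8.62% higher over all tested probe sets. Each role held at most 11 tested probe sets, so its count is a description only. Col1a1 and Col1a2 encode the chains of type I collagen, the main fibre of meninges and skin, and Col3a1 the chain of type III, which accompanies it. Col1a1 ran from 6.86 through a median of 7.19 to 7.62 on control arrays and was at 6.83, 6.43, 6.72, 6.37 and 6.45 on ketogenic replicates 1 to 5. Every ketogenic array lay below every control array, although ketogenic replicate 1 and the lowest control were only just apart. The level was 7.21 ± 0.25 (SD, n = 6) and 6.56 ± 0.20 (SD, n = 5), 1.57-fold lower (log2 difference -0.65, SE 0.13, adjusted p = 0.00626). The other Col1a1 probe set had a difference of -0.34 (SE 0.36, adjusted p = 0.535).

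Both Col1a2 probe sets had differences of the size of Col1a1 without passing the threshold. The one of higher mean was at 6.14, 6.56 and 7.36 (lowest, median and highest) on control arrays and at 6.41, 5.99, 6.11, 5.83 and 6.07 on ketogenic arrays, a difference of -0.54 (SE 0.20, adjusted p = 0.0711), and the other one had -0.68 (SE 0.26, adjusted p = 0.0838). Col3a1 ran from 5.76 through 6.52 to 7.52 on control arrays and was at 6.71, 5.39, 6.07, 5.66 and 5.54 on ketogenic arrays. Its diets overlapped widely, with ketogenic replicate 1 above the control median (difference -0.60, SE 0.29, adjusted p = 0.153). As deposited, both Col1a2 probe sets passed the threshold (-0.85 and -0.72) and Col3a1 did not (-0.78, adjusted p = 0.0641).

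Col2a1, the fibrillar collagen of cartilage and of the vitreous, fell by 0.60 (SE 0.11, adjusted p = 0.00578). Control arrays lay at 6.27 to 6.69 with a median of 6.51, and ketogenic arrays at 5.62, 6.07, 5.99, 5.81 and 6.06, with no overlap. Its other probe set was too dim to be tested. Col5a1 and Col5a2, chains of type V collagen that help to set fibril width, were not called. Col5a1 had a difference of -0.08 (SE 0.16, adjusted p = 0.765), with control arrays at 6.72, 7.00 and 7.22 and ketogenic arrays at 6.83, 6.63, 7.57, 6.65 and 6.81, replicate 3 standing above all others. The Col5a2 probe sets had 0.24 (adjusted p = 0.0858) and 0.14 (adjusted p = 0.471).

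**Figure D2:**
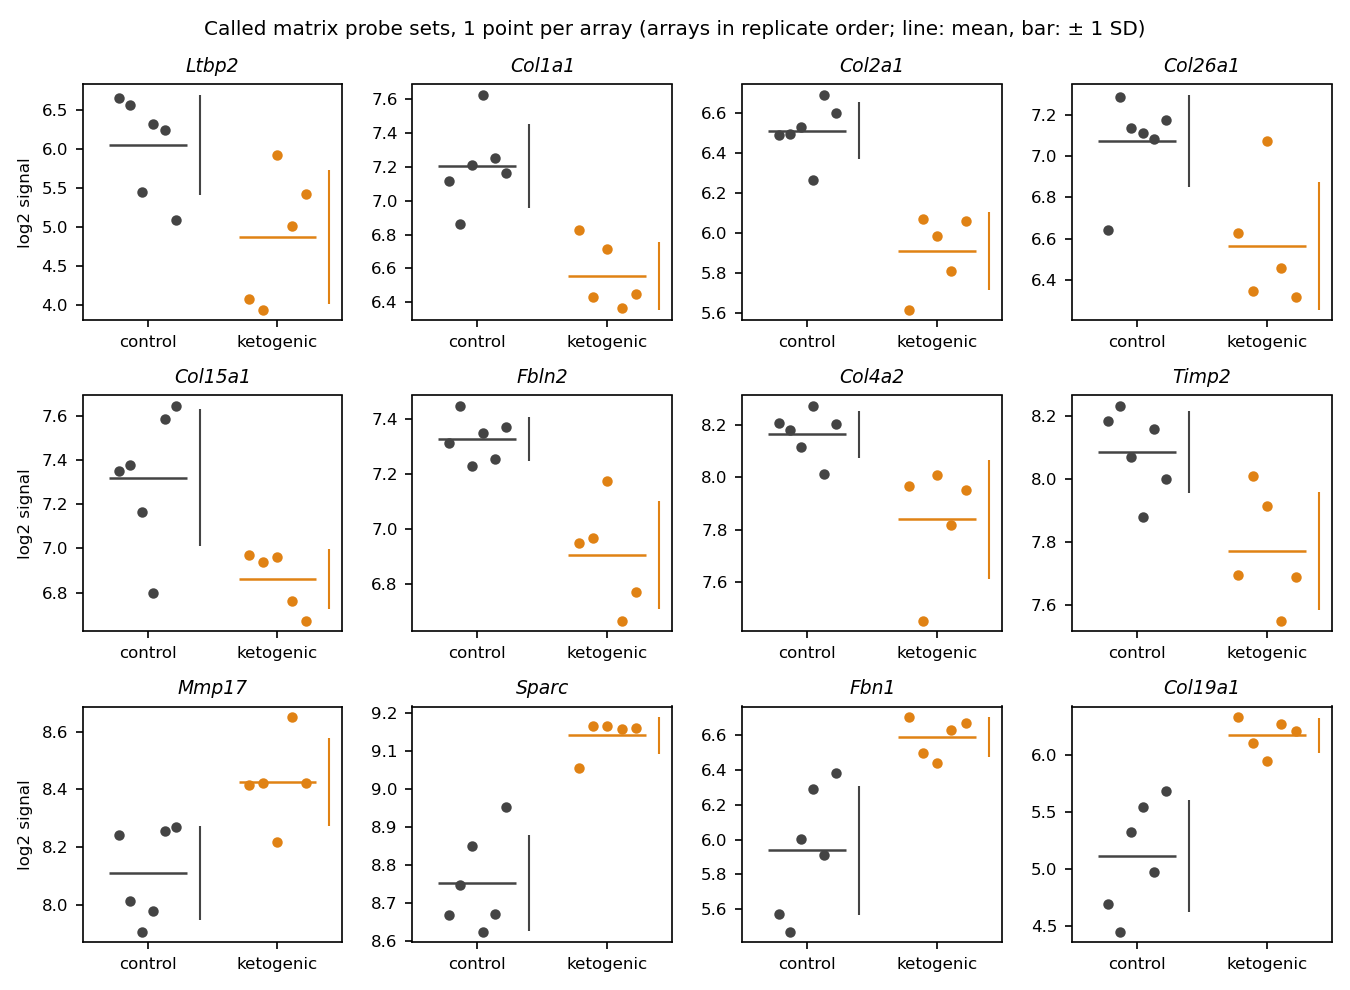
Log2 signal (y axis, its own range in each panel) of the 12 called probe sets on each array, 1 point per array in replicate order, with the mean of each diet as a line and ± 1 SD as a bar, ordered from the most negative to the most positive difference. The diets did not overlap for Col1a1, Col2a1, Col4a2, Fbln2, Sparc, Fbn1 and Col19a1, and did for the other 5.

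In the basement membrane, 2 of 7 tested collagen probe sets fell, 0 rose and 6 differences were negative (median -0.27). Col4a2, whose product joins that of Col4a1 in the common type IV collagen trimer, was at 8.01, 8.19 and 8.27 (lowest, median and highest) on control arrays and at 7.97, 7.45, 8.01, 7.82 and 7.95 on ketogenic arrays. Those ranges touch to 2 decimals without overlapping, with ketogenic replicate 2 far below the rest. Col4a2 fell by 0.32 (SE 0.09, adjusted p = 0.0334). The Col4a1 probe sets had -0.30 (SE 0.10, adjusted p = 0.0592) and -0.05 (SE 0.09, adjusted p = 0.704).

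Col4a1 and Col4a2 lie head to head and are transcribed away from each other. The stretch between their annotated starts is shown because both genes are read from it. In RefSeq's tables for the assembly GRCr8, whose build need not be that of the array, this stretch is 76 bases long at chr16:84885521-84885596 (plus strand, the strand of Col4a1). The capitals mark the 1 match found in it among the searched letters, the GC box GGGCGG read on the minus strand, 61 bases from the 5′ end.
Col4a1-Col4a2: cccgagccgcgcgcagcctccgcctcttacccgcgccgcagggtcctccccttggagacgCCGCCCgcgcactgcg
The stretch was 78.9% G and C. RefSeq start windows were found for 61 of the 80 genes. In the 250 bases before the start, searched on both strands, GGGCGG was present in 33 of the 61 windows, or 54.1%, against 30.5% of all 33469 windows. CCAAT was in 20, or 32.8% against 34.0%, and TATAAA in 13, or 21.3% against 12.9%. Each member gene stood by 1 window. The 33469 were not cut to 1 window per gene or to genes on the array, so these shares compare unlike sets. These matches are letters in a window, and 2 neighbouring genes such as Col4a1 and Col4a2 share bases.

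Col15a1, which ties basement membranes to the fibrils beside them, fell by 0.46 (SE 0.13, adjusted p = 0.0317). Its control arrays ran from 6.80 through 7.36 to 7.64 and its ketogenic arrays were at 6.97, 6.94, 6.96, 6.76 and 6.67. Control replicate 4, at 6.80, lay among the ketogenic arrays, while the other 5 controls lay above all of them. Col18a1, the source of endostatin, had -0.19 (adjusted p = 0.245), Col4a4 -0.27 (adjusted p = 0.225) and Col4a5 0.14 (adjusted p = 0.420). The ketogenic mean of Col4a4, 5.11, lay below the testing level, so it was tested only through its control values.

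Laminins, the cross-shaped proteins that organise basement membranes, had 0 called of 6 tested probe sets (median -0.12, 4 negative). Lamc1, the gamma chain of most laminins, had 2 probe sets near each other, at -0.25 (SE 0.09, adjusted p = 0.0704) and -0.23 (adjusted p = 0.208). The first ran from 7.16 through 7.31 to 7.62 on control arrays and was at 7.22, 7.02, 7.20, 7.03 and 7.06 on ketogenic arrays, overlapping at the edge. Lamb1 had 0.25 (adjusted p = 0.271) and Lama2, the laminin chain lost in a muscular dystrophy, 0.19 (adjusted p = 0.424). Nidogens, which link laminin to type IV collagen, had 0 of 3 called. Nid1 was at 6.65, 6.99 and 7.11 on control arrays and at 6.63, 6.34, 6.89, 7.12 and 6.84 on ketogenic arrays (difference -0.16, SE 0.13, adjusted p = 0.389), and Nid2 had -0.19 (adjusted p = 0.143).

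Among the other collagens 1 of 9 tested probe sets fell and 1 rose. Col26a1, a little-studied collagen first found in testis and ovary, was at 6.64, 7.12 and 7.29 (lowest, median and highest) on control arrays and at 6.63, 6.35, 7.07, 6.46 and 6.32 on ketogenic arrays. Control replicate 1 was low and ketogenic replicate 3 high, and the other 5 controls lay above the other 4 ketogenic arrays. Col26a1 fell by 0.51 (SE 0.14, adjusted p = 0.0279). Col19a1, a collagen that hippocampal interneurons are known to make and that takes part in synapse formation, rose by 1.07 (SE 0.21, adjusted p = 0.00646). Control arrays lay at 4.45 to 5.69 with a median of 5.15 and ketogenic arrays at 6.34, 6.11, 5.95, 6.28 and 6.22, with no overlap. Its control mean, 5.11, lay below the testing level, so it was tested only through its ketogenic values. Chains of type VI, VII, IX, X, XII and XIV collagen had differences between -0.26 for Col6a3 and 0.093 for Col14a1, none of them called.

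Small leucine-rich proteoglycans coat collagen fibrils and bind growth factors. Of 6 tested probe sets 0 were called, with a median of -0.20. Bgn, biglycan, had ketogenic arrays at 7.13, 6.94, 7.15, 6.98 and 6.18 inside a control range of 5.83 to 7.70 with a median of 7.43 (difference -0.21, SE 0.31, adjusted p = 0.674). Dcn, decorin, a marker of fibroblasts, had the smallest difference of the members named here, -0.007 (SE 0.13, adjusted p = 0.978), with control arrays at 6.52, 6.88 and 7.35 and ketogenic arrays at 6.64, 6.89, 7.03, 6.77 and 6.92. Ogn, osteoglycin, had 2 tested probe sets at -1.04 (SE 0.42, adjusted p = 0.0984) and -0.39 (adjusted p = 0.325). The first had ketogenic replicate 3 at 2.63 and the other ketogenic arrays at 4.45 to 5.77. Its ketogenic mean, 4.62, lay below the testing level, so it was tested only through its control values. Lum had -0.20 and Fmod 0.12.

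Glycoproteins that bind matrix and cells had 1 called of 7 tested probe sets. Sparc, which binds collagen and in brain is made by astrocytes and endothelium, was measured by 2 probe sets with opposite signs. The first lay at 8.62 to 8.95 on control arrays with a median of 8.71, and at 9.06, 9.17, 9.17, 9.16 and 9.16 on ketogenic arrays, without overlap. It rose by 0.39 (SE 0.07, adjusted p = 0.00391). The second, designed from the same transcript record, lay at 9.32, 9.44 and 9.60 on control arrays and at 9.28, 9.47, 9.42, 9.04 and 9.09 on ketogenic arrays, and had a difference of -0.18 (SE 0.09, adjusted p = 0.151). The probe sets of Sparc thus gave no single direction. Fn1, fibronectin, was at 7.54, 7.90 and 8.08 on control arrays and at 7.74, 7.28, 7.77, 7.71 and 7.44 on ketogenic arrays (difference -0.26, SE 0.12, adjusted p = 0.158). Vcan, versican, a large proteoglycan of the brain matrix, had 3 tested probe sets at -0.22, 0.067 and 0.34. Mgp, a calcification inhibitor, had 0.030 (adjusted p = 0.920).

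Elastic fibre genes had 2 of 9 tested probe sets lower and 1 higher (median -0.14). Fbln2, a fibulin of vessel walls and basement membranes, fell by 0.42 (SE 0.09, adjusted p = 0.0109). Its control arrays were close together, at 7.23 to 7.45 with a median of 7.33, and its ketogenic arrays lay below all of them at 6.95, 6.97, 7.17, 6.66 and 6.77. Ltbp2, one of the proteins related to the fibrillins, had ketogenic arrays at 4.08, 3.95, 5.93, 5.01 and 5.42 and control arrays at 5.09, 6.28 and 6.65. The diets overlapped, and the ketogenic mean of 4.88 was below the testing level, so Ltbp2 was tested only through its control values (difference -1.17, SE 0.37, adjusted p = 0.0424). With the 3 prime to 5 prime covariates its difference was 0.43 (SE 0.49, adjusted p = 0.938), the opposite sign. Ltbp3, which keeps latent TGF-beta in the matrix, had -0.42 (SE 0.14, adjusted p = 0.0542), with control arrays at 7.36, 7.67 and 7.92 and ketogenic arrays at 7.17, 7.00, 7.81, 7.03 and 7.24. Here ketogenic replicate 3 lay among the controls and the other 4 below them, and without it Ltbp3 was called lower at -0.56 (adjusted p = 0.00321).

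Fbn1, fibrillin-1, the backbone of microfibrils and the gene of Marfan syndrome, rose by 0.65 (SE 0.16, adjusted p = 0.0165). Control arrays spread from 5.47 through 5.96 to 6.38 and ketogenic arrays lay above them at 6.70, 6.50, 6.44, 6.63 and 6.67. Its other probe set had 0.054 (SE 0.15, adjusted p = 0.826). Of the 14 genes with more than 1 tested probe set, 11 had differences of the same sign and 3, Mmp24, Sparc and Vcan, had opposite signs. For none of these 14 was more than 1 probe set called.

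Matrix metalloproteinases, which cut collagens and other matrix proteins, had 1 of 10 tested probe sets called. Mmp17, a membrane-anchored member found in brain, rose by 0.32 (SE 0.09, adjusted p = 0.0319). Control arrays lay at 7.91, 8.13 and 8.27 and ketogenic arrays at 8.41, 8.42, 8.22, 8.65 and 8.42, replicate 3 among the controls and the other 4 above them. Mmp24, a membrane type known from neurons, had its probe set of highest mean at 8.20, 8.54 and 8.58 on control arrays and at 8.44, 8.53, 8.68, 8.32 and 8.45 on ketogenic arrays (difference 0.01, SE 0.08, adjusted p = 0.940). Mmp16 had 0.38 (adjusted p = 0.0748) and both Mmp2 probe sets, for gelatinase A, -0.039 and -0.11. Both Mmp9 probe sets, and those of Mmp3, Mmp7, Mmp8, Mmp10, Mmp11 and Mmp13, were too dim to be tested.

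Adamts7, of a family of secreted proteases, was the 1 tested of 3 Adamts probe sets, with control arrays at 6.90, 7.07 and 7.23, ketogenic arrays at 6.54, 6.74, 7.10, 6.87 and 6.86 and a difference of -0.26 (SE 0.10, adjusted p = 0.0879). Of 4 tested Timp probe sets, all with negative differences, 1 fell. Timp2 was at 7.88, 8.11 and 8.23 on control arrays and at 7.69, 8.01, 7.91, 7.55 and 7.69 on ketogenic arrays, overlapping through control replicates 4 and 6, the lowest controls. It fell by 0.31 (SE 0.09, adjusted p = 0.0340), and its other probe set had -0.13 (adjusted p = 0.357). Timp3, which stays bound to the matrix, had control arrays at 8.22, 8.37 and 8.62 and ketogenic arrays at 8.53, 8.10, 8.36, 8.09 and 8.25 (difference -0.12, SE 0.10, adjusted p = 0.408).

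Neither meningeal enzyme was called. Ptgds, which makes prostaglandin D2 and is abundant in arachnoid cells, choroid plexus and oligodendrocytes, spread over more than 1 log2 unit within each diet. Control arrays ran from 9.45 through 10.03 to 11.22 and ketogenic arrays were at 10.70, 8.96, 10.79, 8.89 and 9.12 (difference -0.50, SE 0.39, adjusted p = 0.393). Aldh1a2, which makes retinoic acid in the meninges, was at 6.71, 7.06 and 7.42 on control arrays and at 6.86, 6.52, 7.01, 6.19 and 6.51 on ketogenic arrays (difference -0.41, SE 0.15, adjusted p = 0.0743). In both genes ketogenic replicates 1 and 3 were high and 4 was lowest.

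Over all 75 tested matrix probe sets control replicate 4 was the highest control in 24, or 32.0%, against 14.2% of all tested probe sets. Control replicate 2 was the lowest control in 24.0%, against 16.2%, and control replicate 6 in 22.7%, against 21.3%. Ketogenic replicate 1 was the highest ketogenic array in 38.7%, against 20.5%, and replicate 3 in 37.3%, against 27.8%, while replicate 4 was the lowest in 28.0%, against 17.8%. A group of 19 of these probe sets, those of the fibrillar collagens, the small proteoglycans and the 2 enzymes, was put together after their values had been seen, and it holds a pair of probe sets each for Col1a1, Col1a2, Col5a2 and Ogn, so its counts are a description only. In it control replicate 4 was the highest control in 12 and ketogenic replicate 1 the highest ketogenic array in 10. The median deviation of the fibrillar collagens from their control means ran from -0.26 to 0.24 on control and from -0.70 to 0.071 on ketogenic arrays.

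**Figure D3:**
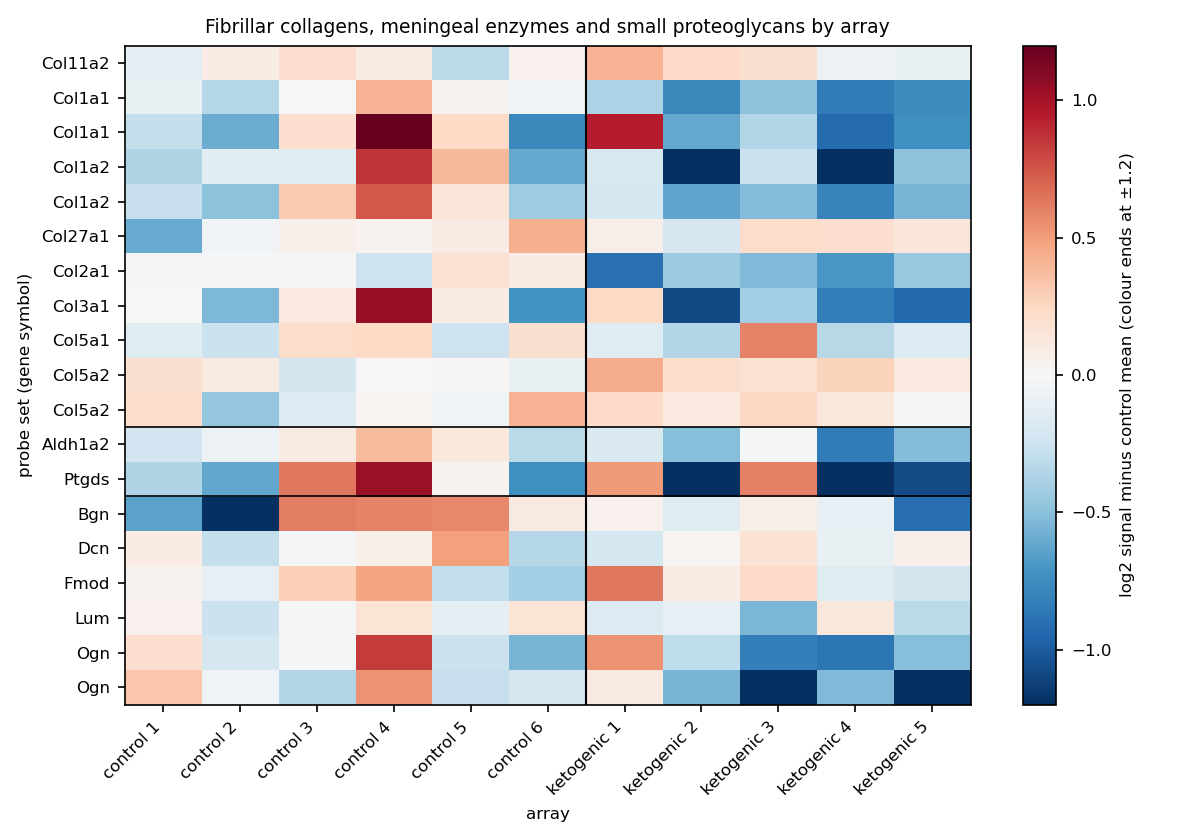
Log2 signal minus the control mean (colour, ending at ± 1.2 so that larger values look alike) for the 19 tested probe sets of fibrillar collagens, meningeal enzymes and small proteoglycans (rows) on the 11 arrays (columns, diets parted by the vertical line). Control replicate 4 is the highest control in 12 rows and ketogenic replicate 1 the highest ketogenic array in 10; Col1a1, Col1a2, Col3a1 and Ptgds were all highest in control replicate 4 among controls.

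Markers of meningeal fibroblasts outside the selection were listed too. Of 26 listed, 21 were on the array, 15 were tested, 2 fell and 0 rose, 13.3% called against the 16.5% over all, and 13 of the 15 differences were negative (median -0.29). Their summed signal was 1598 to 2455 on control arrays, highest on replicate 4, and 1145 to 1646 on ketogenic arrays, highest on replicate 1. In such a sum the brightest genes weigh most. The mean log2 deviation of the 15 from their control means was also highest on control replicate 4 (0.28). Among ketogenic arrays it was highest on replicate 3 (-0.15), with replicate 1 at -0.21. Slc22a8, an anion transporter also made in choroid plexus and vessels, fell by 0.62 (SE 0.14, adjusted p = 0.0121). Igfbp2, a carrier of the IGF hormones, fell by 1.21 (SE 0.35, adjusted p = 0.0337). Igf2, a growth factor of meninges and choroid plexus, had -0.60 (adjusted p = 0.188) and Foxc1, a factor needed for meninges to form, -0.44 (adjusted p = 0.0531). Slc6a13, Slc22a6, Slc22a2, Crabp2, Aebp1 and S100a4 were below the testing level.

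Choroid plexus markers, with 10 tested of 14 listed, had 3 lower and 0 higher (median -0.30). Their summed signal was 1036 to 2803 on control arrays, highest on replicate 1, and 807 to 1243 on ketogenic arrays. Of the 3 that fell, Cldn2, with a ketogenic mean of 4.98, was tested only through its control values. Of 8 tested endothelial markers 1 fell, or 12.5% (median -0.16), with sums of 1180 to 1291 and 994 to 1238. Of 7 tested mural cell markers 0 were called, all with negative differences (median -0.21), with sums of 543 to 651 and 463 to 553. All 4 tested red cell markers fell, with sums of 1168 to 1623 and 295 to 385. Of these Alas2, with a ketogenic mean of 4.95, was tested only through its control values. Of 6 tested oligodendrocyte markers 1 fell (median -0.062) and of 8 astrocyte markers 2 fell (median -0.069), while 1 of 9 neuron markers rose. The part of these tissues and cells in the matrix differences was not tested.

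Genes that act with the matrix were counted from 6 lists that hold no member. Of 13 tested genes for collagen processing and crosslinking 1 fell and 2 rose (median -0.03): Plod3, a lysyl hydroxylase, fell by 0.53, P3h3, a prolyl hydroxylase, rose by 0.90 and Ppib, which helps to fold collagen, by 0.30. Serpinh1, the collagen chaperone, had -0.08 (adjusted p = 0.680). Of 11 tested genes of the brain's own chondroitin sulphate matrix 1 fell, Ptprz1 by 0.32, and of 10 heparan sulphate proteoglycans 1 rose, Agrn by 0.30. Of 8 matricellular genes 1 rose, Ccn2, a target of TGF-beta signalling, by 0.48. Of 11 tested integrins and receptors 0 were called, with 9 negative differences (median -0.17). Of 18 tested genes of TGF-beta and BMP signalling 2 fell, Tgfbr3 by 0.38 and Bmp7 by 0.35, and 1 rose, Smad4 by 0.62 (median -0.12).

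The diets did not overlap in 7 of the 75 tested members, 9.33% against a background of 6.99%, and all 7 were called. Among the 7, Col19a1 was tested only through its ketogenic values. In 7 of the 12 called probe sets ketogenic replicate 3 was the ketogenic array nearest to the control mean. This was not counted over all called probe sets, so it cannot be read as a trait of the matrix genes. On the first principal component, taken over all tested probe sets, replicate 3 was also the ketogenic array nearest to the controls. Without that replicate 14 members fell and 5 rose, 18.7% and 6.67% against a background of 13.3% in each direction. All 12 of the earlier calls were among them. The 7 added were Adamts7, Aldh1a2, the Col1a2 probe set at -0.78, the Lamc1 probe set at -0.27, Ltbp3 and Nid2 on the lower side and Mmp16 on the higher. The lower count was 4 without control replicate 2 (background 4.56%) and 5 without control replicate 5 (4.99%). It was 4, 3 and 5 without ketogenic replicates 2, 4 and 5 (3.51%, 3.29% and 5.06%).

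The calls of Col1a1, Col2a1, Fbln2, Col19a1, Fbn1 and Sparc held when any 1 of the 11 arrays was left out, and those of the other 6 did not. For Col19a1 this is no further support, since it was tested only through the ketogenic values in which it was higher. Col4a2 missed the threshold without control replicate 1, 2, 3 or 4 or ketogenic replicate 2 or 4 (adjusted p 0.0519 to 0.0767). Col15a1 missed it without control replicate 2, 5 or 6 or ketogenic replicate 2, 4 or 5 (0.0523 to 0.0802), and Col26a1 without control replicate 2 or 3 or ketogenic replicate 2, 4 or 5 (0.0525 to 0.0735). Ltbp2 missed it without control replicate 1, 2, 4 or 5 or ketogenic replicate 1, 2 or 4 (0.0744 to 0.109). Timp2 missed it without control replicate 1, 2, 3 or 5 or ketogenic replicate 1, 4 or 5 (0.0566 to 0.0965), and Mmp17 without control replicate 2, 3 or 4 or ketogenic replicate 1, 2, 4 or 5 (0.0576 to 0.0928). In each of these fits the difference kept its sign.

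**Figure D4:**
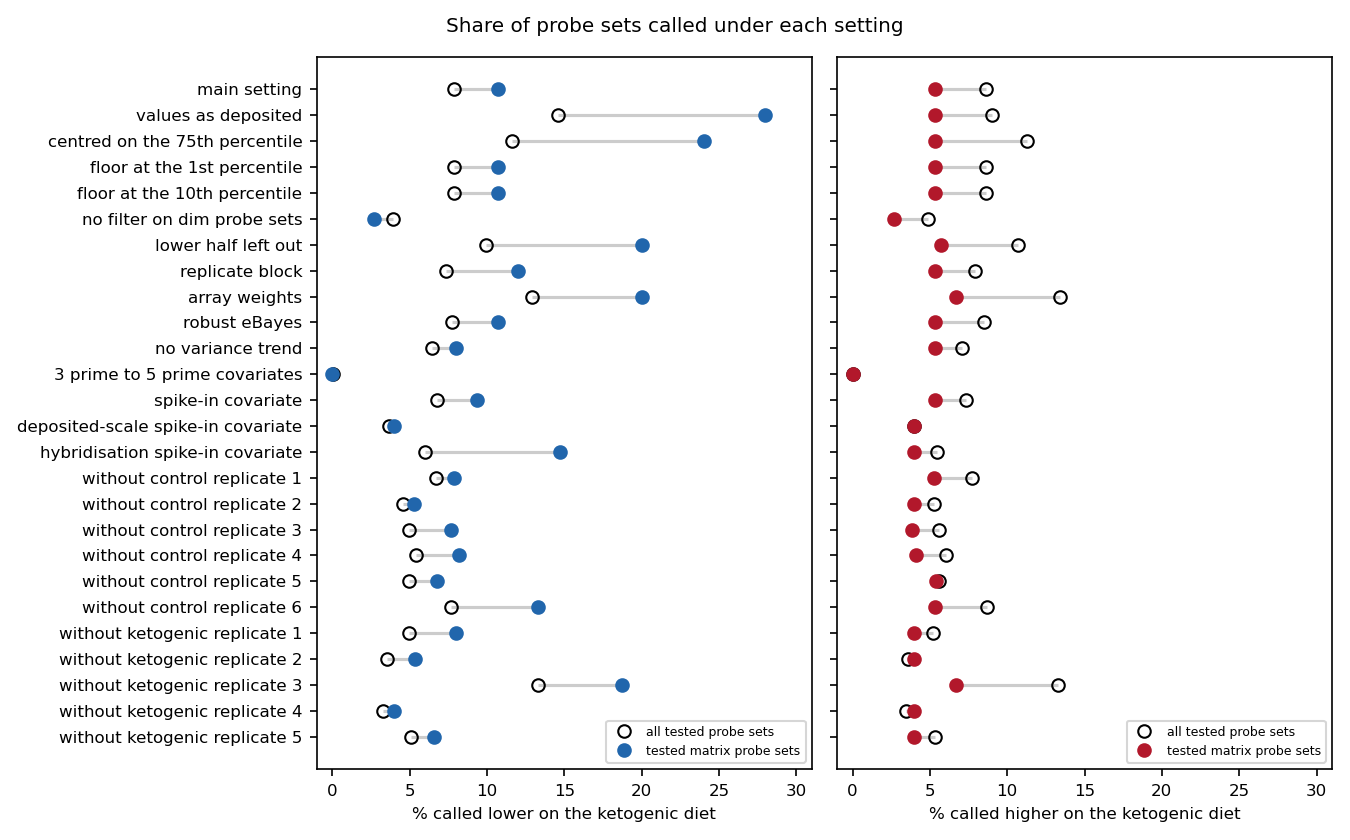
Share of probe sets called lower (left, x axis in %) and higher (right) on the ketogenic diet under the main setting and 25 alternatives (rows), filled for the tested matrix probe sets and open for all tested probe sets. The filled point for lower calls lies right of the open one in the main setting, 10.7% against 7.87%, and farther right on the values as deposited, 28.0% against 14.6%; both are at or near 0 with the 3 prime to 5 prime covariates.

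The 37 members below the testing level had differences of means from -0.75 to 0.82 with a median of -0.012, 19 negative and 17 positive, and 1 at the floor on every array. None of the 37 had diets that did not overlap. They left 21 genes without a tested probe set, among them Postn, Timp1, Col8a1, Lama4, Lama5 and Lamb2.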

How the data were processed

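The deposited values were linear intensity values per probe set for 11 arrays of rat hippocampus RNA; how the authors made them from the scans was not stated in the labels, and per the labels each title names the diet and a replicate number. Scanner files were not used here. Arrays were quantile normalized, values under the 5th percentile of all values (5.02) were set to it, and log2 was taken. The 57 control probe sets and the 25% of lowest mean were left out. limma 3.58.1 in R 4.3.3 (lmFit, eBayes with trend, two-sided) was fitted over 11899 probe sets with Benjamini-Hochberg adjustment at 0.05. For arrays, their number limits the precision.

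Members were probe sets with a single platform symbol fitting the selection; all 112 symbols equal the RefSeq symbol of their gene identifier. Each listed gene stands by 1 tested probe set, that of highest mean. Members and lists were chosen with earlier results of these data known. Values on every array are given for called members, those without overlap, the highest of each role and 8 fixed genes, 27 probe sets in all. The planned spike-in covariate was the mean of the 45 bacterial probe sets. Its mean on the deposited scale and that of the 18 hybridisation controls (bioB, bioC, bioD, cre) were tried after seeing the data and their counts of calls; all 3 are reported.

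The fit was tested on simulated data. Alternatives were other scalings, floors, filters, variance models, array weights, covariates, a replicate block and leaving out each array.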

Additional observations from a re-analysis of the deposited data

Results flagged for a closer look

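In 5 of 80 groups of values 1 array stood far from the rest, where chance gives about 1 in 20 groups, or 4. Ketogenic replicate 3 had Col5a1 at 7.57, against 6.63 to 6.83 on the other ketogenic arrays. Ketogenic replicate 5 had Bgn at 6.18, against 6.94 to 7.15. For the Sparc probe set that rose, ketogenic replicate 1 was at 9.06, with the others at 9.16 to 9.17, a gap that is large only beside their narrow range. Control replicate 1 had Col26a1 at 6.64, against 7.08 to 7.29, and Mmp24 at 8.20, against 8.45 to 8.58.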

How the results depend on the processing

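There were 25 alternatives. Some planned ones that kept all 11 arrays moved the count of matrix probe sets called lower, 8 in the main setting, by over 1.5 times. They gave 21 as deposited, 18 centred on the 75th percentile and 15 with array weights (20% against 12.9% of all tested probe sets). With no filter on dim probe sets 3 of 112 were lower (2.68% against 3.95%, where the main setting had 10.7% against 7.87%). With the 3 prime to 5 prime covariates 0 were lower, and 4 had an unadjusted p under 0.05. The count called higher, 4, became 2 with the lower 50% of probe sets left out and 0 with those covariates. Of the matrix probe sets 35 were tested with the lower 50% left out, so the share called higher was 5.71% against 10.7% of all, beside 5.33% against 8.62% in the main setting. The planned spike-in covariate gave 7 lower and 4 higher, with 1679 called over all probe sets. The other 2 spike-in covariates were chosen after seeing the data: on the deposited scale 3 were lower and 3 higher (907 over all), and with the hybridisation controls alone 11 and 3 (1360 over all). Leaving out 1 array gave 3 to 14 lower and 3 to 5 higher. The lower count moved by over 1.5 times without control replicate 2 (4) or 5 (5). It also did so without ketogenic replicate 2 (4), 3 (14), 4 (3) or 5 (5), and with the deposited-scale covariate. With the replicate block 9 were lower, 12.0% against 7.33% of all, and 4 higher, 5.33% against 7.93%; same-numbered arrays did not deviate together (correlations 0.0089 to 0.077), a ketogenic array matched the control array of its own number best in 2 of 5 cases, and the block lost Col15a1 and Col4a2 and added Fn1, Ltbp3 and Ogn. The median difference, -0.12, moved by more than the spread between arrays to -0.27 as deposited, -0.24 after centring and -0.25 with the hybridisation controls. The median over all tested probe sets, -0.0041 in the main setting, was then -0.060, -0.027 and 0.0061. With 1 array left out the median of the matrix probe sets was -0.16 to -0.085. The cause was not tested.

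Of the 12 called probe sets, Ltbp2 alone changed sign under any alternative, to 0.43 with the 3 prime to 5 prime covariates. Those covariates also turned Col5a1 (0.13), Fn1 (0.042), Ptgds (0.14), Nid1 (0.017) and Dcn (0.31). Col5a1 turned with the deposited-scale spike-in covariate (0.033), and Mmp24 with array weights (-0.027) and the hybridisation controls (-0.12). With 1 array left out, Mmp24 ran from -0.045 to 0.051 and Dcn from -0.075 to 0.091. Calls of Col1a1, Fbln2 and Sparc held in 24 of 25 alternatives each.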
